A study of Mus musculus with 96 samples.

Results

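The forebrains of vehicle-treated mice of the inbred strains NOD/ShiLtJ (NOD) and C57BL/6J (B6) were compared on the Affymetrix mouse gene 1.1ST array, with 4 mice in each strain. These 8 arrays were chosen by their labels (forebrain, vehicle, 1.1ST format) from the 96 arrays of the series, which hold 48 RNA samples of 16 mice, each run on the 1.1ST and on the 1.0ST format. All mice were adult males, bred in the same colony and housed singly, and the vehicle groups received a saline injection into the peritoneum and were killed 3 h later. Brains were taken with the olfactory bulbs attached and without the cerebellum, and 1 hemisphere of each mouse was split into a forebrain and a hindbrain piece while the other was kept whole. The other forebrain groups were 4 NOD and 4 B6 mice given clozapine, an antipsychotic, in the same way. The B6 vehicle mice were BB686, BB687, BB707 and BB708 and the NOD vehicle mice DD656, DD657, DD659 and DD677, and values by mouse are given below in this order. Values are log2 signals, so a difference of 1 is 2-fold.

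C57BL/6J is the strain from which the mouse reference genome was built, and NOD/ShiLtJ is a strain that develops autoimmune diabetes and carries its own haplotype of the major histocompatibility complex (MHC). An inbred strain is homozygous almost everywhere, so a gene that differs in sequence between the strains differs in every mouse alike. The forebrain piece holds cortex, hippocampus, striatum and olfactory bulb, with their neurons, glia, vessels and choroid plexus, the tissue that makes cerebrospinal fluid. In such bulk tissue fewer cells of a type and less RNA per cell cannot be told apart.

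The pieces differed in the markers checked in the direction of their labels. All 6 measured forebrain markers, among them the cortical factors Tbr1 and Fezf2, were higher in forebrain than in hindbrain of every vehicle mouse, and all 11 measured hindbrain and midbrain markers, among them the glycine transporter Slc6a5, were lower. None of these 17 markers was called between the strains. The forebrain markers are cortical and striatal, so they do not show on which side of the cut thalamus and hypothalamus fell. Prkcd, abundant in thalamus, read higher in the hindbrain than in the forebrain piece of every vehicle mouse. The study describes its hindbrain as holding substantia nigra and hypothalamus. Array medians lay between 6.47 and 6.50 and did not separate the strains (exact permutation p = 0.971, 4 mice against 4). The quantile normalization of these values brings medians together, so they cannot show whether the RNA of the strains was alike. Body weight did separate them, with 24.4 ± 1.14 g in B6 and 30.6 ± 1.93 g in NOD (SD, n = 4 each, exact permutation p = 0.0286, the smallest this design allows, and 0.0571 after adjustment over 4 measures). NOD mice came from litters of 9 or 11 pups and B6 mice from litters of 6 or 8, so litter and strain cannot be told apart. Of the clozapine arrays, that of NOD mouse DD676 stood apart, with a median of 6.28 against 6.47 to 6.52 in the other 15 forebrain arrays.

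Strain was the main axis of the forebrain arrays. The first principal component held 32.4% of the variance of the 16 forebrain arrays and placed all NOD mice on one side and all B6 mice on the other. Of 18810 genes measured, 1012 differed between the strains in vehicle forebrain at a false discovery rate (FDR) below 0.05, which is 5.38% of the genes. Of these, 504 were higher in NOD (2.68% of genes) and 508 were lower (2.7% of genes). Counted by transcript cluster, the unit of the array, 1609 of 28310 were called, or 5.68%. The number of arrays limits the precision: the median SE of a strain difference was 0.09. Leaving out NOD mouse DD657, NOD mouse DD677 or B6 mouse BB687 reduced the genes called higher in NOD to 310, 321 and 328. The 4 mice of one strain all lay above the 4 of the other for 12.9% of all genes and for 955 of the 1012 called.

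Most differences were small. Of the genes called, 758 (74.9%) differed by less than 1.5-fold, and the median size was 0.42. A difference of 2-fold or more was found for 23 genes higher in NOD and 39 genes lower, and one of 4-fold or more for 2 and 9 genes. With genes ranked by mean level and split into 4 groups of like size, 1.34% of the lowest group and 8.10% of the third were called. The probes follow the C57BL/6J reference sequence, and the part that NOD sequence variants under the probes have in these values was not tested.

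The genes described next as the largest differences were ranked among those called without overlap of the vehicle mice. Their separation is thus a condition of the choice and not a further result. The gene with the largest excess in NOD was Ccl19, a chemokine that draws T cells and dendritic cells through the receptor CCR7. The B6 mice read 6.77, 6.90, 6.37 and 6.74 and the NOD mice 9.97, 10.12, 10.17 and 10.16. All NOD mice were thus far above all B6 mice, and the means of 6.70 ± 0.23 and 10.11 ± 0.09 (SD, n = 4) differed by 3.41 (SE 0.14, 10.6-fold, FDR 4.24e-11). The array carries 5 transcript clusters with the name Ccl19, at differences of 3.23 to 3.47, of which a pair held identical values. Ccl19 has near-identical copies in the mouse genome, so the signal may come from more than 1 of them.

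Next came the small nucleolar RNA Snord53, which guides the modification of ribosomal RNA. It read 6.90, 6.95, 6.51 and 6.76 in B6 and 8.94, 8.90, 8.84 and 8.87 in NOD, a difference of 2.11 (SE 0.10, FDR 1.78e-10). The strains were well apart, and the SD of the NOD mice was 0.04. Pla2g4e, a cytosolic phospholipase that takes part in the making of N-acyl phospholipids, read 6.42, 6.45, 6.63 and 6.25 in B6 and 8.33, 8.40, 8.30 and 8.37 in NOD. The difference of 1.91 (SE 0.12, FDR 1.61e-08) is 3.77-fold. Cfap54, a protein of motile cilia, differed by 1.86 (SE 0.09), and a separate transcript cluster of that gene by 1.56.

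Retsat, the retinol saturase, was the largest difference among genes of retinoid handling. Its B6 values were 7.44, 7.22, 7.27 and 7.40 and its NOD values 9.17, 9.15, 9.07 and 9.10. The strains did not overlap and the spread was small, with a difference of 1.79 (SE 0.08, 3.46-fold, FDR 8.87e-11). Rarres1, a gene named for its induction by retinoids, was higher by 1.46 (SE 0.20), with NOD values spread from 5.78 to 6.62. Npl, which breaks down sialic acid, was higher by 1.45 (SE 0.10). Further genes with at least 2.3-fold more signal in NOD were Fv1, which restricts murine leukaemia viruses (1.37), the alpha/beta hydrolase Abhd1 (1.38), the recombination factor Psmc3ip (1.32) and Serpina3n, a protease inhibitor that reactive astrocytes make (1.30). In each of these 4 genes all NOD mice were above all B6 mice, and each kept its call under all alternatives tried.

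Slc10a4 and Slitrk6 were also among the 15 largest differences upward. Slc10a4, a vesicle protein of cholinergic and monoamine neurons, read 5.32, 5.02, 6.29 and 6.15 in B6 and 6.93, 7.12, 6.69 and 7.06 in NOD (1.26, SE 0.31, FDR 0.0194). B6 mice BB707 and BB708 came close to the NOD mice, and the call was lost without B6 mouse BB686 or BB687 or NOD mouse DD657 or DD677. Slitrk6, a neuronal membrane protein, differed by 1.24 (SE 0.21), and its call held whichever vehicle mouse was left out.

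The largest deficit in NOD was that of 4930578G10Rik, a transcript without an assigned function. It read 8.71, 9.89, 9.69 and 9.55 in B6 and 4.82, 6.05, 4.37 and 4.36 in NOD. The difference of -4.56 (SE 0.40, FDR 6.53e-07) is 23.6-fold, and every NOD mouse was below every B6 mouse. 3830406C13Rik, also without an assigned function, had means of 8.13 ± 0.08 in B6 and 5.17 ± 0.45 in NOD (SD, n = 4), a difference of -2.96.

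Pttg1, the securin that holds sister chromatids together until anaphase, was 6.81-fold lower in NOD. Its B6 values were 8.54, 8.62, 8.50 and 8.63 and its NOD values 5.46, 6.30, 5.93 and 5.53 (-2.77, SE 0.20, FDR 7.68e-08). The SD was 0.07 in the B6 mice and 0.39 in the NOD mice, which scattered more, and the strains did not overlap. Crym, the crystallin mu that binds thyroid hormone in the cytosol of cortical and striatal neurons, read 10.22, 9.84, 9.94 and 9.84 in B6 and 7.08, 7.59, 7.38 and 7.28 in NOD. At -2.63 (SE 0.10, 6.18-fold, FDR 3.93e-11) it had the smallest FDR of all genes lower in NOD, with no overlap.

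Other genes among the 15 largest deficits have unlike roles. Ndufs5, a subunit of complex I of the respiratory chain, read 8.31, 8.41, 8.56 and 8.56 in B6 and 5.99, 7.13, 6.10 and 6.09 in NOD. NOD mouse DD657 was higher than its strain mates but below every B6 mouse, and the difference was -2.13 (SE 0.22, FDR 4.12e-06). Akr1e1, a reductase of sugars, differed by -1.83 (SE 0.17), and Pagr1a, a partner of a histone methyltransferase complex, differed by -1.74 (SE 0.10). Trim12a, a relative of the viral restriction factor TRIM5, differed by -1.73 (SE 0.13), with NOD values of 3.58 to 3.75. Carmil1, a regulator of actin capping, differed by -2.25 in 1 transcript cluster and by -0.17 (FDR 0.331, not called) in another, so its probes disagreed. H4c4, a histone H4 gene, differed by -2.22, and since histone genes are near-identical copies the gene that gave this signal is uncertain.

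**Figure D1:**
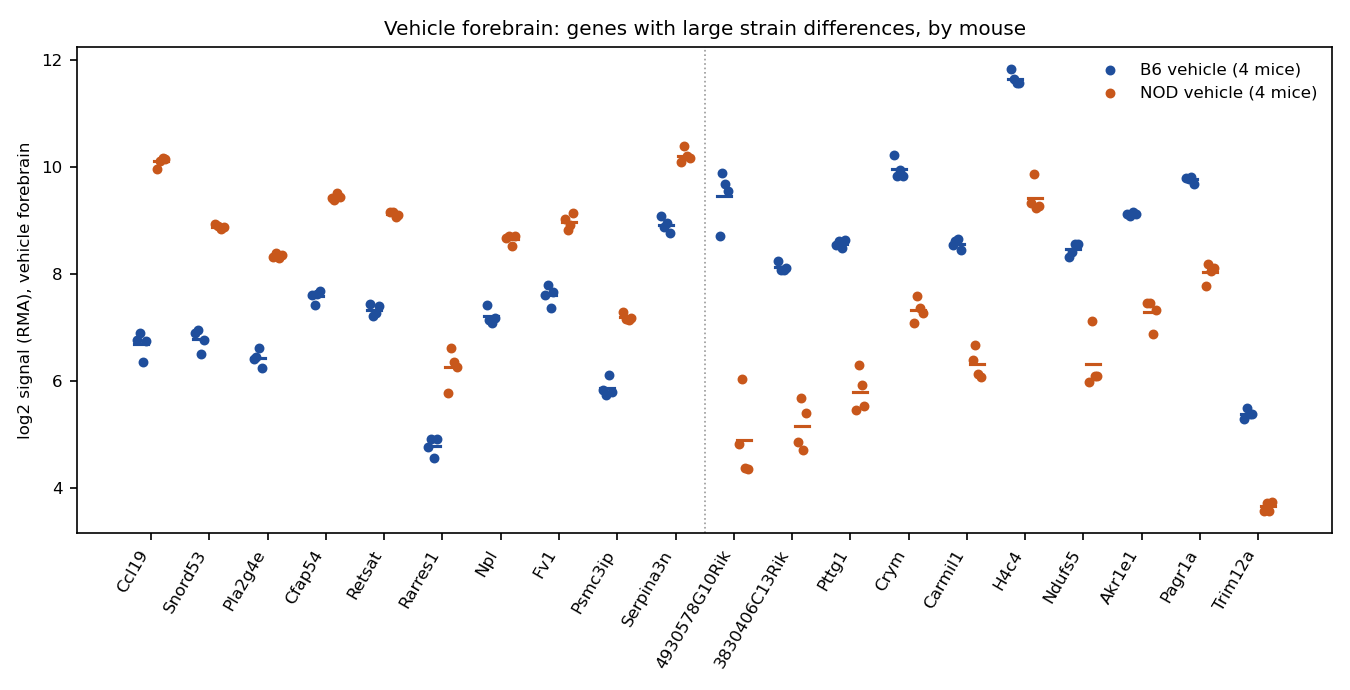
Log2 signal (RMA) in vehicle forebrain of 20 genes with large strain differences; each point is a mouse, each bar the mean of 4 mice, B6 in blue and NOD in orange. Left of the dotted line are genes higher in NOD and right of it genes lower in NOD. The genes were taken from those called without overlap of the strains, so the separation seen in all 20 is a condition of their choice.

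The gene lists described from here on were all drawn up with earlier results of these data known. Their shares called, set beside that of all genes, are thus descriptive and no independent check. Of 40 measured genes of MHC and antigen presentation, 7 were lower in NOD and none was higher (17.5% called, list median -0.05, against -0.005 over all genes). H2-T23, a non-classical class I gene, read 7.39, 6.89, 6.99 and 7.16 in B6 and 5.87, 5.98, 6.06 and 6.16 in NOD (-1.09, SE 0.12, FDR 9.23e-06). H2-K1, a classical class I heavy chain, read 6.81, 6.95, 6.80 and 6.92 against 6.18, 6.22, 6.23 and 6.33 (-0.63, SE 0.13). Both were separated without overlap, as was B2m, the light chain shared by class I molecules, at -0.39 (SE 0.08). The other genes called were Cd1d1, H2-T10, H2-Oa and Psme1, at -0.45 to -0.28. Only 3 of the 7 were called on the 1.0ST arrays, and the count fell to 4 without B6 mouse BB707 and without NOD mouse DD656 or DD677. Class I genes are near-identical in parts and vary between strains, and how far the probes tell them apart was not tested.

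Of 60 interferon-induced genes and restriction factors, 3 were higher and 5 lower (13.33% called, against 5.38% of all genes). Trim21, an antibody receptor inside the cell, was higher by 0.77 (SE 0.11) beside Fv1 and Ifi203, and Trim12a led those lower, with Iigp1, Trim12c, Apobec3 and Irgm1 at -0.59 to -0.34. The lower ones numbered 3 without NOD mouse DD656, DD659 or DD677. Of 66 chemokines, cytokines and their receptors, 4 were higher (Ccl19, Ccr6, Ccl17 and Tgfb2) and 1 was lower. This is 7.58% called, near the share of all genes. The counts were 5 and 5 on the 1.0ST arrays and 6 and 3 in a fit of the 8 vehicle arrays alone. Ccr6, a receptor of B and T cells, differed by 0.89 (SE 0.11), and Ccl17, a ligand of the chemokine receptor CCR4, by 0.67 (SE 0.11). The one lower, Cxcr4, differed by -0.38 and by 0.02 on the 1.0ST arrays, and its call was lost when any of B6 mice BB686, BB687 and BB707 or NOD mice DD657, DD659 and DD677 was left out. None of 28 markers of lymphocytes and other blood cells was called, and their mean signal was 4.39 to 4.48 in B6 and 4.36 to 4.41 in NOD.

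Microglial genes moved singly. Of 24 measured, Fcrls and Fcgr3 were lower and Cx3cr1 was higher (12.5% called, against 5.38% of all genes, list median 0.04). Fcrls, a scavenger receptor-like gene that marks microglia, read 8.19, 7.91, 7.69 and 7.78 in B6 and 6.54, 6.81, 6.60 and 6.82 in NOD. All NOD mice were below all B6 mice (-1.20, SE 0.12, FDR 3.82e-06). Fcgr3, an activating receptor for immunoglobulin G, differed by -0.62 (SE 0.11). Cx3cr1, the fractalkine receptor, differed by 0.33 (FDR 0.0353), a call lost without B6 mouse BB686, BB687 or BB707 or NOD mouse DD657, DD659 or DD677. Of 21 astrocyte genes Gfap was higher (0.46) and Cldn10 lower (-0.59), a share of 9.52%. The call of Gfap was lost without B6 mouse BB687 or BB708 or NOD mouse DD656, DD657 or DD659.

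Among 44 genes of thyroid hormone, retinoid and steroid handling, 5 were higher and 3 lower (18.18%, against 5.38% of all genes), with a list median of 0.01. Those higher were Retsat, Rarres1, Ttr, the thyroxine carrier Slco1c1 (0.34) and the retinol dehydrogenase Rdh13 (0.36). Those lower were Crym, Dio2, the deiodinase that makes active thyroid hormone in glia (-0.46, SE 0.09), and Hsd11b1, which regenerates glucocorticoid (-0.51). Hsd11b1 was not called on the 1.0ST arrays or without any of B6 mice BB686, BB687 and BB708 or NOD mice DD656, DD659 and DD677, and Slco1c1 was not called on the 1.0ST arrays.

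Lipid genes split in both directions. Of 32 phospholipase and lipid mediator genes, 3 were higher (Pla2g4e, Abhd1 and Pla2g6) and Ptgs2, the inducible cyclooxygenase, was lower (-0.60, SE 0.11). The share called was 12.5%, against 5.38% of all genes. Pla2g6 lost its call on the 1.0ST arrays and without any of B6 mice BB686 and BB708 or NOD mice DD656, DD657, DD659 and DD677. Of 40 enzymes of sphingolipids and gangliosides, 3 were higher and 4 lower (17.5%). The acid sphingomyelinase Smpd1 differed by -0.48 (SE 0.07) and the acid ceramidase Asah1 by -0.37 (SE 0.06), both lysosomal enzymes, while the neutral ceramidase Asah2 differed by 0.40 (SE 0.08). The higher ones numbered 1 without B6 mouse BB687 or NOD mouse DD657 or DD659, and the lower ones 2 without B6 mouse BB686, BB707 or BB708 or NOD mouse DD657 or DD659. Of 36 genes of sterol and fatty acid synthesis, Hsd17b7 (-0.52, SE 0.08) and Sc5d were lower and Scd1 higher (8.33%). Sc5d and Scd1 lost their calls when single mice were left out, both without B6 mouse BB686 or BB708 or NOD mouse DD657, and Sc5d also without B6 mouse BB687 or NOD mouse DD656 or DD677.

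Of 75 genes of oxidative phosphorylation, with Nnt, 4 were higher and 4 lower (10.67%, against 5.38% of all genes, median -0.002). Nnt, the mitochondrial transhydrogenase that supplies NADPH, is known to carry a deletion of several exons in C57BL/6J. It read 8.51, 8.45, 8.29 and 8.51 in B6 and 9.00, 9.12, 9.15 and 9.20 in NOD, so the strains did not overlap (0.68, SE 0.06, FDR 1.75e-06). Atp5g1, a subunit of the ATP synthase ring, was higher by 0.49 (SE 0.06), and Sdhc, a subunit of complex II, by 0.44 (SE 0.07). Beside Ndufs5 the lower ones were Ndufb10, Ndufc2 and Atp5e, and 2 were called without B6 mouse BB708.

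Of 59 genes of drug and glutathione metabolism, 5 were higher and 4 lower (15.25%, against 5.38% of all genes). Glutathione reductase, Gsr, read 9.08, 8.97, 8.99 and 9.00 in B6 and 9.95, 9.99, 9.95 and 9.87 in NOD. The SD was 0.05 in each strain, far below the difference of 0.93 (SE 0.08, FDR 2.83e-07). The glutathione transferases Gsta4, Gsto1 and Gsto2 were higher by 0.33 to 0.48, and Alad, an enzyme of haem synthesis, by 0.74 (SE 0.09). Beside Akr1e1 those lower were Cyp39a1, Cyp4f13 and Arnt, at -0.64 to -0.47. Without B6 mouse BB687 or NOD mouse DD657 the higher ones numbered 3, with Gsto1 and Gsto2 lost. Neither Gsto1 nor Gsto2 was called on the 1.0ST arrays. Gsto1 also lost its call without B6 mouse BB707 or BB708 or NOD mouse DD656 or DD677.

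A list of 27 genes with known variants in C57BL/6J or NOD was drawn up from general knowledge, with earlier results of these data known. It held 4 higher and 3 lower, a share called of 25.9% against 5.38% of all genes. Because of how the members were chosen, this share is no independent check. Gabra2, the alpha-2 subunit of the GABA-A receptor, carries a known intronic deletion in C57BL/6J. It read 9.50, 9.39, 9.17 and 9.57 in B6 and 10.02, 10.19, 10.38 and 10.25 in NOD (0.80, SE 0.10, FDR 3.29e-05), without overlap. Wdfy1, an endosomal adaptor, was higher by 0.94 (SE 0.08), and Entpd4, a Golgi nucleotidase, differed by -0.64 (SE 0.07). Nnt, Alad, H2-K1 and B2m complete the 7.

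None of 32 glutamate receptor genes was called, and Gabra2 was the only one called of 26 GABA receptor and GABA handling genes (3.85%, against 5.38% of all genes). Of 49 receptors for monoamines, acetylcholine and opioids, the dopamine receptor Drd2 and the kappa opioid receptor Oprk1 were higher and Htr3a was lower (6.12%). Htr3a, the ion channel receptor for serotonin found on a class of cortical interneurons, read 7.22, 6.88, 6.66 and 6.95 in B6 and 5.85, 6.01, 6.09 and 6.06 in NOD. It was lower in every NOD mouse (-0.92, SE 0.13, FDR 0.000107). The call of Oprk1 was lost without B6 mouse BB686 or BB687 or NOD mouse DD657 or DD677.

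Of 33 interneuron genes, 4 were called lower and none higher (12.12%, against 5.38% of all genes). Of the 33 differences, 15 were positive (list median -0.05), so the list as a whole was not shifted like its called members. Those called lower were Htr3a, the transcription factors Dlx1 and Sp8, and the peptide Npy (-0.45, SE 0.11). Only 2 remained without B6 mouse BB687 or BB707 or NOD mouse DD657, DD659 or DD677, and 1 was called on the 1.0ST arrays. Dlx1 and Sp8 were the genes lost without any of these mice, as were the olfactory bulb genes Doc2g and Cdhr1 described below. The part of the bulb in the interneuron values was not tested. Of 36 neuropeptide and hypothalamic genes Penk was higher and Npy and Trh lower (8.33%). Of 30 markers of cortical and hippocampal excitatory neurons Wfs1 alone was called (3.33%), with a difference of 0.58 (SE 0.13). Penk lost its call without B6 mouse BB686 or BB687 or NOD mouse DD657 or DD677, Trh without B6 mouse BB686, BB687 or BB707 or NOD mouse DD657 or DD659, and Npy without NOD mouse DD656. None of 35 brainstem and midbrain genes was called.

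Of 19 measured genes of striatal projection neurons, 8 were called higher in NOD and none lower (42.1%), 18 had a positive difference, and the median was 0.43 against -0.005 over all genes. Drd2, the dopamine D2 receptor, read 8.17, 8.08, 8.66 and 8.58 in B6 and 8.89, 9.20, 8.91 and 9.51 in NOD. The strains did not overlap (0.75, SE 0.16, FDR 0.00537). Rasd2, a small GTPase of striatal neurons, differed by 0.63 (SE 0.13), the orphan receptor Gpr6 by 0.65 (SE 0.16), and Pde1b, Rgs9, Adcy5, Penk and Gng7 by 0.36 to 0.52. The count depended on single mice: it was 2 without B6 mouse BB687 or NOD mouse DD657 or DD677, and 3 without B6 mouse BB686. It was 4 in the 48-array fit with the mouse as a block. In the clozapine mice the list median was -0.16 (-0.18 without NOD mouse DD676), and B6 there had the higher mean Drd2.

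Of 24 oligodendrocyte and myelin genes on the array, 8 were called higher in NOD and none lower (33.3%), and all 24 differences were positive (median 0.26). Mog, a protein of the outer myelin surface, read 9.86, 9.73, 9.73 and 9.84 in B6 and 10.20, 10.39, 10.19 and 10.10 in NOD, without overlap (0.43, SE 0.10, FDR 0.00743). Fa2h, which hydroxylates myelin lipids, differed by 0.48 (SE 0.10) and Opalin, a myelin membrane protein, by 0.59 (SE 0.14). Cldn11, Ugt8a, Aspa, Tspan2 and the progenitor marker Pdgfra differed by 0.28 to 0.43. Opalin was not called without NOD mouse DD657. The count was 3 without NOD mouse DD657 or DD659, 4 without B6 mouse BB687 and 5 without B6 mouse BB707 or BB708 or NOD mouse DD656. The median in the clozapine mice was 0.01, with or without NOD mouse DD676.

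Of 16 measured choroid plexus genes, 5 were called higher and none lower (31.3%, median 0.57). Ttr, the transthyretin that carries thyroxine and retinol-binding protein into cerebrospinal fluid, read 11.71, 11.20, 11.70 and 11.60 in B6 and 12.24, 12.18, 12.33 and 12.06 in NOD. These values did not overlap (0.65, SE 0.14, FDR 0.00789). The folate receptor Folr1 differed by 0.64 (SE 0.16), the chloride channel protein Clic6 by 0.77 (SE 0.20), and F5 and Sostdc1 by 0.74 and 0.78. The count was 1 without B6 mouse BB687 or NOD mouse DD656 or DD659, 2 without B6 mouse BB708, 3 without NOD mouse DD657 or DD677, and 1 with the mouse as a block. In the clozapine mice the median was -0.17 (-0.03 without NOD mouse DD676). In vehicle hindbrain Ttr differed by -2.03, the opposite direction, but Ttr was not among the 22 genes called for forebrain against hindbrain. Its forebrain call was lost in the 48-array fits with the mouse as a block, both with and without 5 surrogate variables.

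Olfactory bulb genes varied most within B6. Of 27 markers of olfactory bulb, cerebellum and pituitary, Doc2g and Cdhr1, both genes of the bulb's output neurons, were lower in NOD and Car8 was higher (11.11%). Doc2g read 6.95, 8.20, 8.23 and 7.13 in B6 and 6.87, 6.18, 6.29 and 6.20 in NOD, and Cdhr1 read 7.13, 8.54, 8.51 and 7.34 against 7.29, 6.24, 6.10 and 6.25. B6 mice BB687 and BB707 were high in both genes and NOD mouse DD656 was above its strain mates, so that Cdhr1 overlapped between the strains. Eomes, another gene of these neurons, followed the same mice (5.68, 7.63, 7.38 and 5.63 against 6.20, 4.89, 4.94 and 5.27) and was not called (FDR 0.170). Both calls were lost without B6 mouse BB687 or BB707 or NOD mouse DD657, DD659 or DD677. Scgn, a calcium sensor of bulb interneurons and the 15th largest deficit in NOD (-1.45, SE 0.36), read 5.90, 6.72, 6.40 and 5.66 in B6 and 5.33, 4.58, 4.48 and 4.51 in NOD, and lost its call without the same 5 mice. How much of each bulb came with the forebrain piece was not measured. Its part in the values of striatal, choroid plexus, oligodendrocyte, interneuron and bulb genes was not tested.

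**Figure D2:**
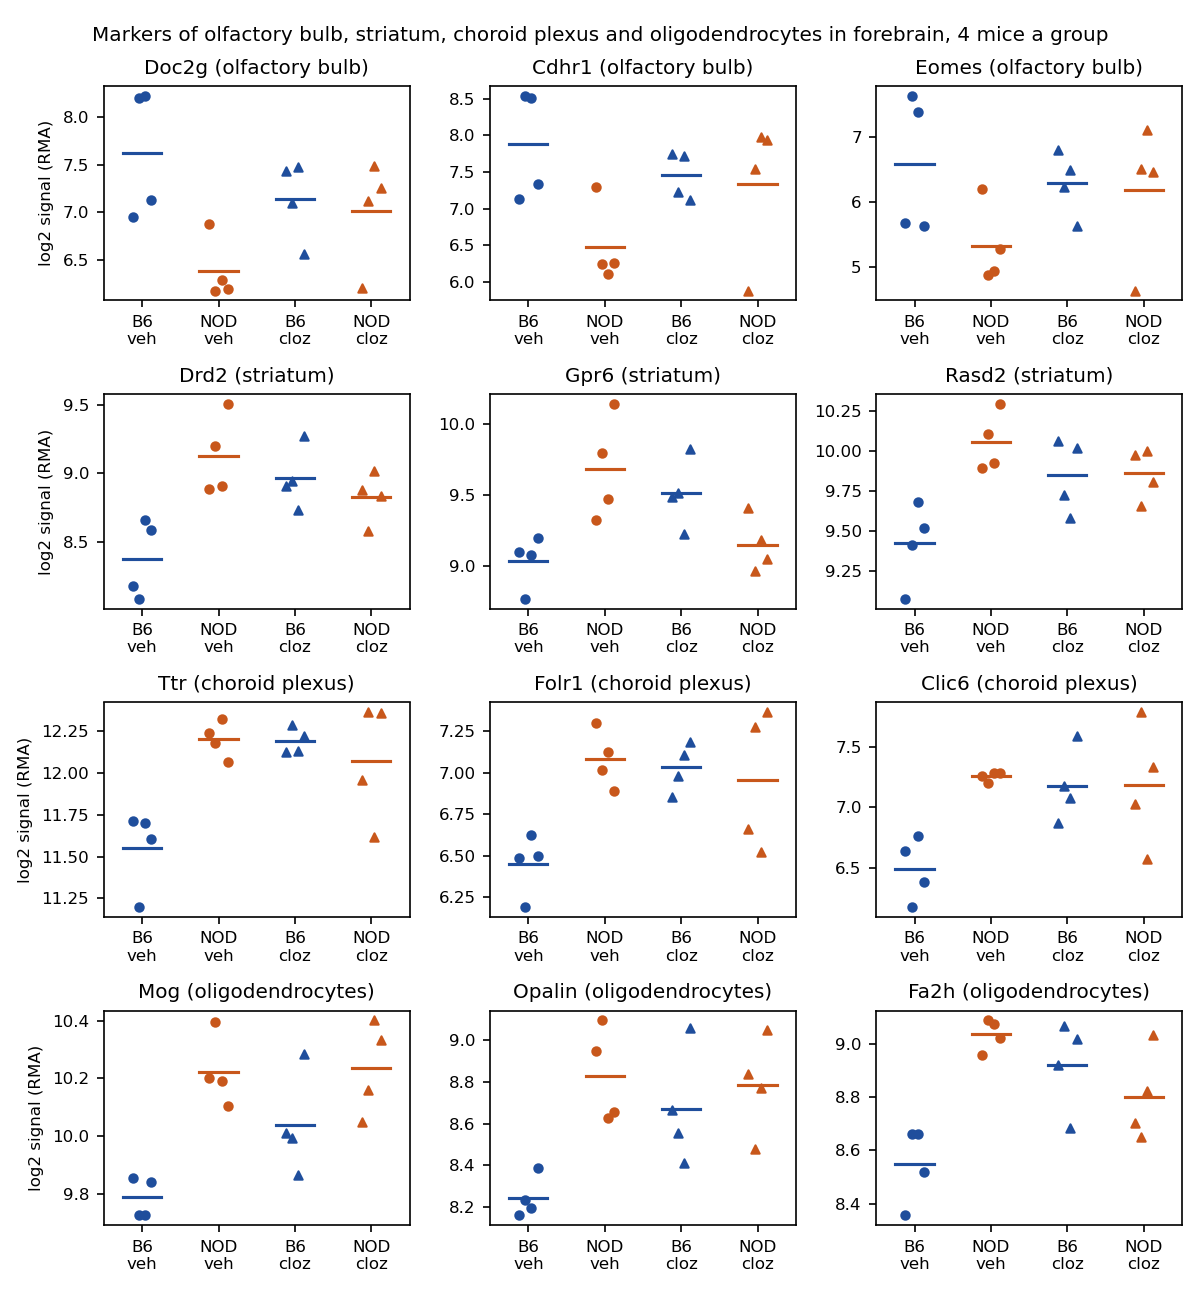
Log2 signal (RMA) of 3 genes each of olfactory bulb, striatum, choroid plexus and oligodendrocytes in forebrain; each point is a mouse, bars are means of 4 mice, circles vehicle and triangles clozapine, B6 blue and NOD orange. The vehicle groups are apart for Drd2, Ttr and Mog, the clozapine groups overlap for these genes, and bulb genes range widely within a group.

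Of 42 measured genes of dividing cells and meiosis, 7 were lower in NOD and 1 higher, Psmc3ip (19.05%, against 5.38% of all genes). Of the 42 differences, 16 were positive (median -0.05). Beside Pttg1 the lower ones were 4930447C04Rik (-1.99, SE 0.14), the spindle checkpoint kinase Bub1b (-0.71), the meiotic cohesin Rec8 (-0.57), Ccnd1, Ccnd2 and Syce2. Of 40 cilia genes, 5 were higher and 1 lower (15%). Cfap61, a part of the radial spokes of motile cilia, read 5.67, 5.32, 5.23 and 5.35 in B6 and 6.54, 6.29, 6.60 and 6.52 in NOD (1.1, SE 0.11), and Dnah6, a dynein heavy chain, differed by 1.01 (SE 0.10). With Cfap54 these were the largest of the list and none overlapped between strains, whereas Rsph1, Cfap44 and the lower Cfap69 differed by less. The higher ones numbered 3 without B6 mouse BB687 or BB708 or NOD mouse DD656, DD659 or DD677, and none was lower without B6 mouse BB708 or NOD mouse DD657.

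Of 28 immediate early genes, which respond to neuronal activity within the hour, Ptgs2 alone was called (3.57%), and 5 of the 28 differences were positive (median -0.12). Of 27 glucocorticoid-responsive genes Pdk4 was higher (0.53) and Fam107a lower (-0.50), a share of 7.41%, and 4 differences were positive (median -0.10). Of 21 clock genes Fbxl21 was higher and Nfil3 lower (9.52%), and neither held when B6 mouse BB687 or BB707 or NOD mouse DD657 or DD677 was left out. Nfil3 also lost its call without B6 mouse BB686 or NOD mouse DD659. Of 23 genes of endothelium and mural cells the carriers Slco1a4 (-0.58, SE 0.10) and Abcb1a (-0.30, SE 0.08) were lower (8.70%). Abcb1a was not called without B6 mouse BB687 or NOD mouse DD656, DD657 or DD677. Igf2 (0.64, SE 0.15) was the 1 of 15 meningeal genes called (6.67%), and Prkcd the 1 of 17 thalamic genes (5.88%). Both shares are near the 5.38% of all genes. None of the 6 genes of the sex check was called.

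**Figure D3:**
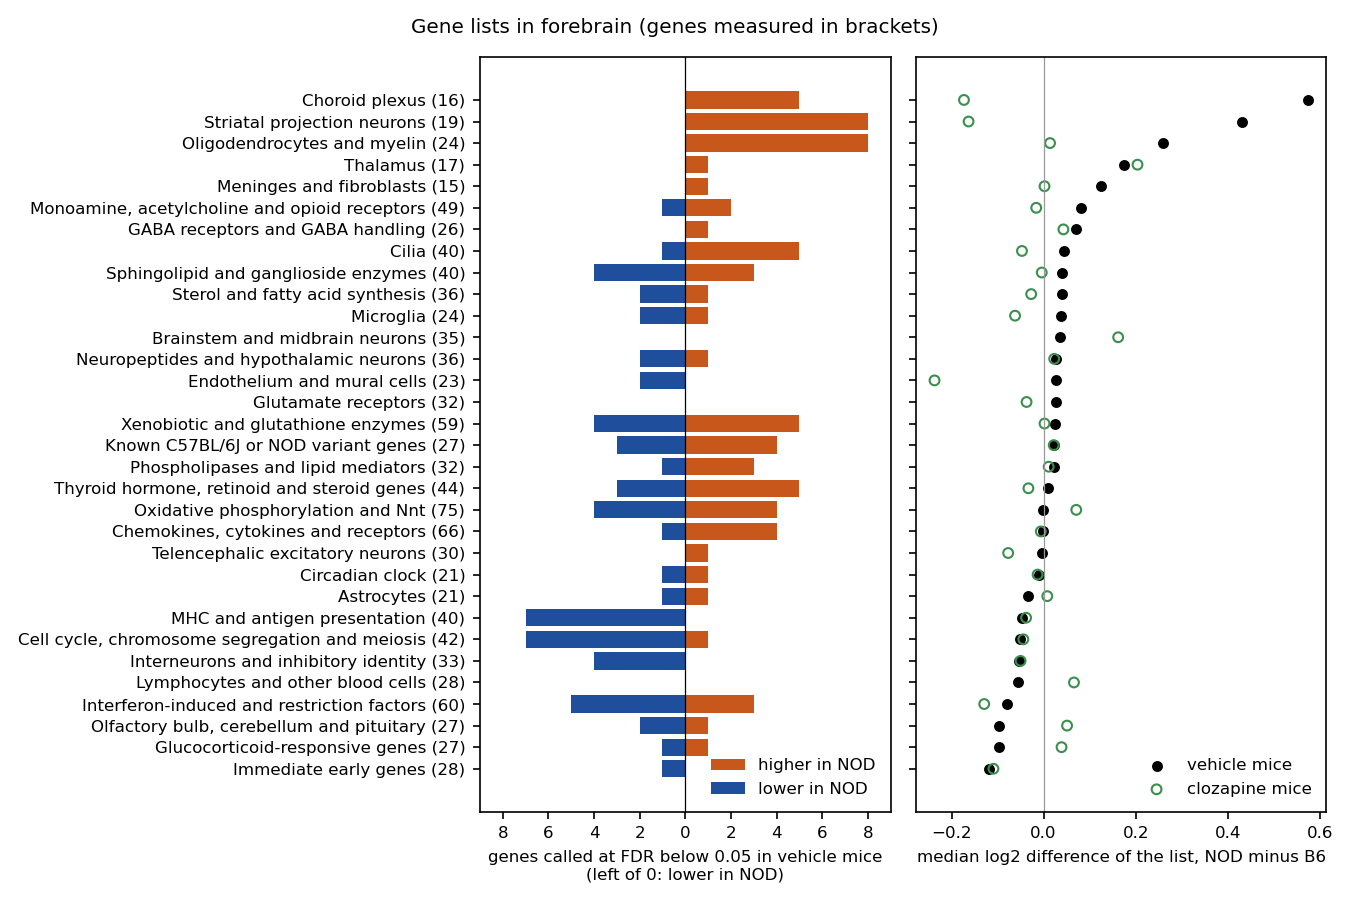
Left, number of genes of each list called at an FDR below 0.05 in vehicle forebrain, higher in NOD to the right of 0 and lower to the left, with the number measured in brackets; right, the median log2 difference NOD minus B6 of each list in vehicle (filled) and clozapine mice (open). Choroid plexus, striatal and oligodendrocyte lists have the highest vehicle medians (0.57, 0.43 and 0.26), and their clozapine medians are -0.17, -0.16 and 0.01. The clozapine medians include NOD mouse DD676, whose array stood apart, and without it they are -0.03, -0.18 and 0.01. The lists were drawn up with earlier results of these data known.

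Of 304 microRNA genes measured, 8 (2.63%, against 5.38% of all genes) were called, 3 higher and 5 lower, and all 8 are named here as a group chosen after their values were seen. The array reads the gene or its precursor, not the mature arms, so these values say nothing of how much mature microRNA was present. Mir30a read 5.01, 4.52, 4.96 and 4.86 in B6 and 3.95, 3.93, 3.96 and 4.10 in NOD (-0.85, SE 0.10, FDR 2.21e-05). All B6 mice were above all NOD mice, and the difference was -0.48 on the 1.0ST arrays, also called. A group of 3 lay close to each other on chromosome 12: Mir668, at chr12:109734732-109734797 (GRCm38.p6), and Mir485, at chr12:109734902-109734974, were lower, by -0.41 and -0.65, whereas Mir154, at chr12:109738433-109738498, was higher. Mir485 read 8.19, 8.35, 8.42 and 8.20 in B6 and 7.63, 7.64, 7.63 and 7.66 in NOD, and Mir154 read 6.19, 6.84, 6.31 and 6.62 against 7.22, 7.48, 7.53 and 7.38. Each was separated between the strains, in opposite directions. The excess of Mir154 (0.92, SE 0.16) was 0.19 and not called on the 1.0ST arrays, and the call of Mir668 was lost without B6 mouse BB687 or BB707 or NOD mouse DD656 or DD677. The mature sequences available for these 4 genes (RefSeq, GRCm38.p6) are shown 5′ to 3′, for Mir485 the 3p arm alone. The seed, bases 2 to 8, is in capitals, since it decides which targets an arm can pair with. No seed was shared among the arms shown.
mmu-miR-30a-5p: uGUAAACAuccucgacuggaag
mmu-miR-30a-3p: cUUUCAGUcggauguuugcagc
mmu-miR-485-3p: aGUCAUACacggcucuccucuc
mmu-miR-668-3p: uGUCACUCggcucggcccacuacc
mmu-miR-668-5p: gUAAGUGUgccucgggugagcaug
mmu-miR-154-3p: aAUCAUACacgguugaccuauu
mmu-miR-154-5p: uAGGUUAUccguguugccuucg
The other genes called were Mir181b-2 and Mir204, higher by 0.40 and 0.32, and Mir421 and Mir374b, neighbours on the X chromosome, at -0.46 and -0.34. Of these 4 only Mir181b-2 kept its call whichever single vehicle mouse was left out, and neither Mir181b-2 nor Mir204 was called on the 1.0ST arrays. Mir204 lost its call without B6 mouse BB686 or NOD mouse DD656 or DD657, Mir421 without B6 mouse BB686 or BB708 or NOD mouse DD656, DD659 or DD677, and Mir374b without B6 mouse BB687, BB707 or BB708 or NOD mouse DD656, DD659 or DD677.

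The share of genes called differed by chromosome. Chromosome 13 had the highest share, 9.22% of 705 genes (65 genes, of which 42 were lower in NOD), and chromosome 16 (2.46%) and the X chromosome (2.65%) the lowest. The share on chromosome 13 was between 6.38% and 8.51% when a vehicle mouse was left out. The total called fell as well, from 1012 to between 682 and 871 genes. When the genes were taken in windows of 25 neighbours, 259 of 740 windows held no gene called, and 30 windows held 5 or more.

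The densest window lay on chromosome 13 (GRCm38.p6 chr13:67069398-68582169), where 10 of 25 genes were called, 4 higher and 6 lower. It holds a cluster of KRAB zinc-finger genes, repressors that are near-identical to each other. Zfp738 differed by -1.10 (SE 0.13) and Rsl1, named for regulating sex-limited protein, by -0.73 (SE 0.09). A pair of adjacent windows on that chromosome, chr13:23232115-23825191 and chr13:23836922-27319254, held 7 genes called each, all lower. The former contains the histone genes H4c4, H4c6, H3c4, H4c3 and H1f2, and the latter Carmil1, Scgn, the magnesium channel Mrs2 (-0.82, SE 0.09) and the thioesterase Acot13 (-0.86, SE 0.10). Whether the near-identical histone genes gave separate signals was not tested. On the 1.0ST arrays 5 genes of the former window were called, and H3c4 and H4c3 were not. H3c4 also lost its call without B6 mouse BB686, BB707 or BB708 or NOD mouse DD656, DD659 or DD677, and H1f2 without BB686 or DD659.

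Other windows with 7 genes called lay on chromosomes 1, 4 and 6. That on chromosome 1 (chr1:167598362-171222514) held 6 lower genes, among them the immunoglobulin receptors Fcgr3, Fcgr2b (-0.52, SE 0.09) and Fcrlb (not called on the 1.0ST arrays), Dusp12 (-0.76, SE 0.08) and Hsd17b7, and 1 higher, Sdhc. That on chromosome 6 (chr6:72318676-78408099) held Retsat, Dnah6 and Tmsb10 (0.50, SE 0.09), higher, and Tgoln1 (-0.46, SE 0.07), lower, beside 3 others. That on chromosome 4 (chr4:147873586-149166705) held 4 higher and 3 lower. Of these 6 windows, 4 held genes of both directions and the adjacent pair on chromosome 13 held lower genes alone.

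**Figure D4:**
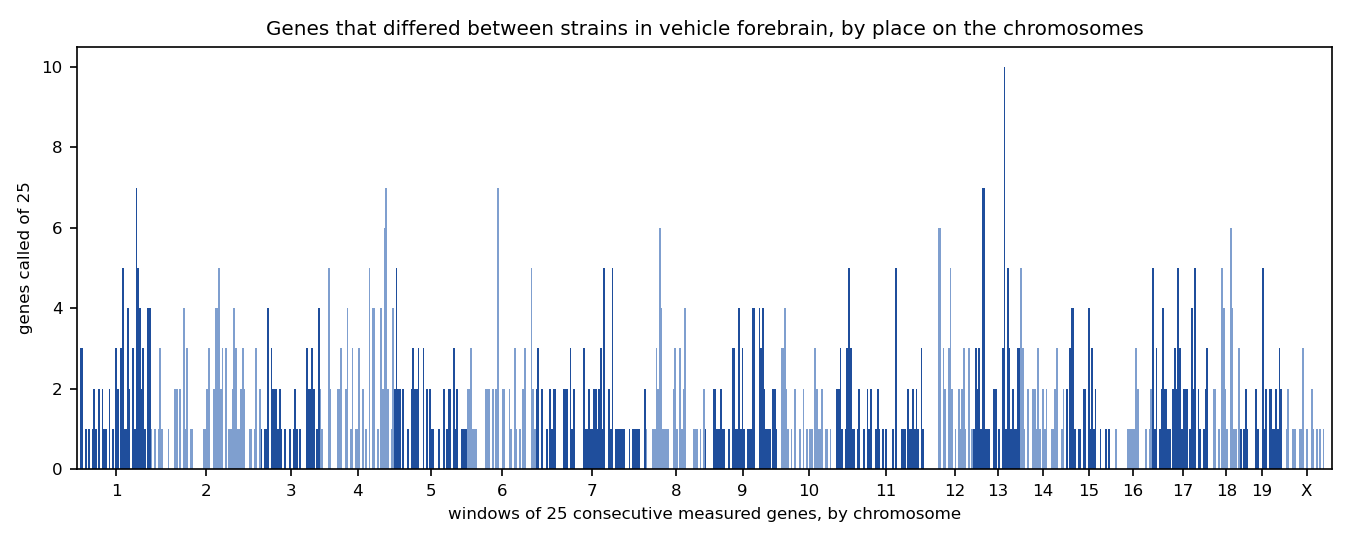
Number of genes called at an FDR below 0.05 in vehicle forebrain in each window of 25 consecutive measured genes (bars), ordered along chromosomes 1 to 19 and X, with shades alternating by chromosome. The highest bar, 10 of 25 genes, is on chromosome 13.

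In clozapine forebrain, from 8 other mice of the same strains, 1153 genes (6.13%) were called between the strains, 404 higher in NOD and 749 lower. Without NOD mouse DD676, whose array stood apart, these were 491 and 502. The strains did not overlap there for 9.91% of genes. Of the 1012 genes called in vehicle mice, 938 (92.7%) had the same sign, 565 (55.8%) were separated in that direction without overlap, 1 was separated in the opposite direction, and 553 were called. Among the 62 genes that differed at least 2-fold in vehicle mice, 53 were separated in the same direction. Ccl19 differed by 2.95 in clozapine mice, Retsat by 1.78, Crym by -2.60 and Pttg1 by -2.61.

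The difference between the treatments was tested gene by gene, and no gene was called (0% of genes, smallest FDR 0.464 in the limma fit). At an unadjusted p below 0.05 there were 1444 genes (7.68%), 196 of them among those called in vehicle mice. The genes called were chosen by the vehicle values that also enter this test, so the 196 are no independent count. Of the genes described above, Drd2 differed by 0.75 in vehicle and -0.14 in clozapine mice, Ttr by 0.65 and -0.12, Dnah6 by 1.01 and 0.29, and Scgn by -1.45 and -0.11. None of these changes between treatments passed the FDR.

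The strain difference in forebrain was set against that in hindbrain of the same 8 vehicle mice, with the mouse as a block. The difference was unequal for 22 genes, 0.117% of those tested, 13 of them more positive in forebrain, and 10 of the 22 were called in vehicle forebrain. The count was 10 without NOD mouse DD659 and 13 without B6 mouse BB687 or NOD mouse DD677. Against whole brain no gene was called (0%, smallest FDR 0.677, with 602 genes at an unadjusted p below 0.05).

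Prkcd, the protein kinase C delta that is abundant in thalamus, turned over between regions. In forebrain B6 read 7.29, 7.07, 7.49 and 7.21 and NOD 8.57, 9.26, 8.25 and 7.76. In hindbrain B6 read 10.15, 10.74, 11.09 and 10.77 and NOD 9.74, 10.26, 9.49 and 9.80. NOD was the higher strain in forebrain (1.19, SE 0.32, FDR 0.0298) and had the lower mean in hindbrain (-0.86, SE 0.31, FDR 0.0822, not called), and the 2 differed by 2.06 (SE 0.43, FDR 0.0153). The forebrain call was lost without any of B6 mice BB686, BB687 and BB708 or NOD mice DD656, DD657 and DD659. The mean of the 17 thalamic genes in forebrain was 7.22 to 7.38 in B6 and 7.19 to 7.69 in NOD, and the part of the place of the dissection between the pieces was not tested.

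Ccl19 was higher in NOD in both pieces, by 3.41 in forebrain and by 2.13 in hindbrain, a gap of 1.28 (SE 0.22, FDR 0.00125). B6 levels were alike in both pieces, at 6.37 to 6.90 and 6.38 to 7.21, and NOD levels were 9.97 to 10.17 in forebrain and 8.83 to 9.01 in hindbrain. Cfap54 also had the larger difference in forebrain, 1.86 against 0.99. C1qtnf12, a secreted relative of complement C1q, differed by 0.46 in forebrain and by -0.53 in hindbrain, and both differences were called.

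Of the other genes, Tmprss11d and Aplnr differed in hindbrain and were not called in forebrain. Tmprss11d, a membrane serine protease, read 3.58 to 3.89 in B6 and 3.53 to 3.69 in NOD forebrain, and 3.51 to 3.84 and 5.28 to 5.53 in hindbrain. Its difference was -0.14 (not called) in forebrain and 1.74 in hindbrain (gap -1.88, SE 0.19, FDR 3.56e-08). Aplnr, the apelin receptor of vessels, was called in hindbrain alone (0.97, and -0.12 in forebrain). Gm5148 and the long non-coding RNA Crnde were lower in NOD in both pieces, by -1.57 and -0.33 in forebrain and by -2.75 and -1.60 in hindbrain, Crnde losing its forebrain call without any vehicle mouse but B6 mouse BB687. Col12a1, a collagen, differed by -0.49 in forebrain and 0.36 in hindbrain, both called.

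**Figure D5:**
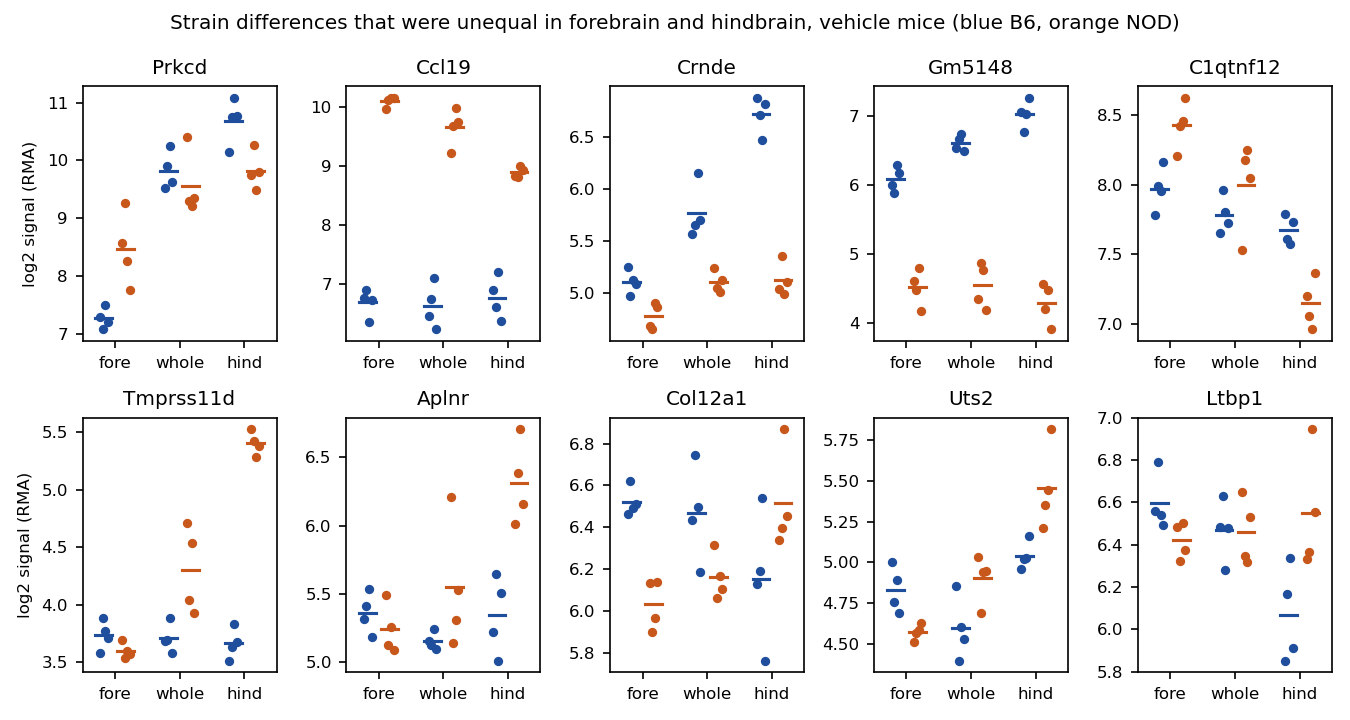
Log2 signal (RMA) of 10 genes in forebrain, whole brain and hindbrain of the 8 vehicle mice, B6 blue and NOD orange; points are mice and bars means of 4. The top row holds the 5 genes with the more positive strain difference in forebrain and the bottom row the 5 with the more positive one in hindbrain; the strain with the higher mean changes between forebrain and hindbrain for Prkcd and C1qtnf12 and for all 5 genes of the bottom row.

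On the 1.0ST arrays of the same vehicle RNA, 914 genes (4.86%) were called between the strains, 457 in each direction, and 647 of them were also called on the 1.1ST arrays. Differences of the largest genes were smaller on that format for Ccl19 (2.11) and Ndufs5 (-0.98) and close to the 1.1ST value for Retsat (1.74) and Snord53 (2.12). The formats measure the same RNA, so this is a check of the measurement and not of the mice. Of the genes named above as called with a 2.3-fold or larger difference, all but Slc10a4 (0.65, FDR 0.103) and Cdhr1 (-0.98, FDR 0.0839) were also called on the 1.0ST arrays.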

How the data were processed

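Total RNA of forebrain, hindbrain and whole brain was hybridised by the authors to Affymetrix mouse gene 1.1ST and 1.0ST arrays. The deposited values are log2 signals that the authors computed by RMA (quantile normalization and median polish) in Affymetrix Expression Console 1.1, per the submitters' processing notes, for 28310 transcript clusters left after control and unannotated ones were dropped. Quantile normalization gives all arrays a common distribution, so differences are relative to the array. Of the clusters, 21207 carry 1 gene symbol, 1867 several and 5236 none. For each of 18810 genes the cluster with the highest mean was used. Positions are from RefSeq, GRCm38.p6.

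Strain differences (NOD minus B6) were fitted with limma 3.58.1 in R 4.3.3 on the 16 forebrain arrays with 4 group means. Regions were compared on all 48 arrays with 12 group means and the mouse as a random block (statmod 1.5.0, correlation 0.0295). Tests were two-sided. The FDR follows the formula of the study's methods, with the share of unchanged transcripts estimated from the large p-values, and genes below 0.05 were called. The test was tried on simulated data with known changes. Replicates are separate mice. Array batch and hemisphere were not used, since the labels do not give them. No authors' comparison columns are in the tables.

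The genes named are the 15 largest differences in each direction without overlap, up to 5 called per list, interaction direction or dense window, markers, and others needed to state a count. The members and the 33 gene lists were chosen with earlier results of these data known, and 127 of 1225 list entries had no cluster. Alternatives were the 1.0ST arrays, fewer or more arrays, surrogate variables, Benjamini-Hochberg adjustment, filters, centring, no variance moderation, kill hour, litter size and each mouse left out.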

Additional observations from a re-analysis of the deposited data

Results flagged for a closer look

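Among the 4 mice of a strain, 1 mouse stood far from the other 3 in 7 of the 162 sets of 4 values tested (81 genes, 2 strains), when the gap to the nearest mouse was divided by the range and compared with Dixon's critical value for 4 samples. Chance marks about 1 in 20 such sets, and all 7 lay in NOD. NOD mouse DD656 was the highest for the olfactory bulb genes Cdhr1 (gap over range 0.872, 7.29 against 6.10 to 6.25), Doc2g (0.835, 6.87 against 6.18 to 6.29) and Scgn (0.886, 5.33 against 4.48 to 4.58), and the lowest for Npy (0.853, 9.37 against 9.64 to 9.69). NOD mouse DD657 was the highest for Ndufs5 (0.904, 7.13 against 5.99 to 6.10) and H4c4 (0.849, 9.86 against 9.24 to 9.34). NOD mouse DD677 was the highest for Mir30a (0.865, 4.10 against 3.93 to 3.96).

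The strain difference was unequal in forebrain and hindbrain of vehicle mice, by the interaction term of the limma fit, for 11 of the genes described. It was more positive in forebrain for Prkcd (by 2.057 on the log2 scale), Ccl19 (1.281), Crnde (1.264), Gm5148 (1.178), C1qtnf12 (0.987) and Cfap54 (0.871). It was more positive in hindbrain for Tmprss11d (-1.875), Aplnr (-1.089), Col12a1 (-0.848), Uts2 (-0.674) and Ltbp1 (-0.659).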

How the results depend on the processing

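Of 155 named genes called in vehicle forebrain and run under all 22 alternatives, 88 kept their direction and call, as did 6 of 12 others where they were run. Direction reversed for Cxcr4 (0.021), Fcrlb (0.017) and Uts2 (0.008) on the 1.0ST arrays alone. With 48 arrays, the mouse as a replicate block and 5 surrogate variables, 1769 genes were called (845 higher in NOD, 924 lower), and 1745 (878 and 867) with litter size as a random block, whose estimated correlation was -0.134. These 2 settings, with their larger totals, gave shares of 13.19% and 12.91% on chromosome 13. A mean level above 5 gave 14.14% of the genes kept there, with 1140 genes called in all. Litter size as a block raised the list members called from 118 to 184. The strains shared no litter size, so this block cannot separate litter from strain, and its larger totals are no firmer result. The mouse as a replicate block alone gave 1088 genes, and forebrain against hindbrain without the block 20. With 1 vehicle mouse left out, 682 to 871 genes were called, 310 to 421 higher and 361 to 450 lower, 79 to 100 list members, 6.383% to 8.511% of chromosome 13, and 10 to 24 genes for forebrain against hindbrain. Without 1 clozapine mouse, 831 to 1126 genes were called between the clozapine groups. Without NOD clozapine mouse DD676, 1292 vehicle genes were called, 140 list members and 10.07% of chromosome 13. The cause of these shifts was not tested. Leaving out clozapine mice, 1 cluster per set of identical values, leave-outs for regions and treatment, and all alternatives for chromosome 13, for clozapine forebrain and, beyond 4, for the lists were chosen after seeing the data. The interaction with treatment and forebrain against whole brain gave 0 genes under every alternative tried. Every cluster of a list gene, in place of 1, gave 119 list members called. No cluster was dropped before the fit, so the planned fit of every deposited cluster is the one shown.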
